A study of Mus musculus with 8 samples.

Results

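The 10 genes described here encode receptor chains and ligands of itch and type 2 cytokine signalling: the receptor chains Il31ra, Osmr, Il4ra, Il13ra1, Il13ra2, Crlf2, Il7r and Il1rl1, and the ligands Il33 and Tslp. They were chosen by name, with all array probes whose RefSeq accession maps to them, and because Il31ra was lower in hair loss skin than in wild type skin in these same samples. That contrast is therefore given below as a description, with no test. The 10 genes had 14 probes, among 14774 genes with a symbol and 30417 probes tested. Each gene is described by its brightest probe, and 7 of the genes had 1 probe only.

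RNA came from sections of skin of C57BL/6N mice and was measured on 8 single-colour Agilent arrays, 1 per sample. The groups were hair loss skin of Cchcr1 mutants (n = 2), skin labelled normal from Cchcr1 mutants (n = 4) and skin labelled normal from wild type mice (n = 2). Cchcr1 encodes a coiled-coil protein, and the series title describes the mutants as made by CRISPR/Cas9 editing, with patchy hair loss like that of alopecia areata. Age, body site, number of animals and edited allele are not given in the sources used here. The titles begin with Mutant097 for hair loss replicate 1 and mutant normal skin replicates 1 and 2, Mutant113 for hair loss replicate 2 and mutant normal skin replicates 3 and 4, and Wild001 for both wild type samples. Nothing in the labels says that the samples of a group came from separate animals, so p-values measure the spread between these samples only, and wild type and title number cannot be told apart. Interfollicular keratinocyte markers were measured in every group, with 7 of 7 above background.

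The arrays differed in brightness and in detection, with 25424 to 30205 probes well above background. In row 1 of the slide were hair loss replicates 1 and 2 with mutant normal skin replicates 1 and 2, and in row 2 the remaining mutant normal skin and the wild type. Xist, made from the inactive X chromosome, was above background on 3 of 3 arrays of Mutant113 and on 0 of the others, whereas the Y-linked Ddx3y and Eif2s3y were above background in Mutant097 and the wild type only. Every comparison of the title numbers below is therefore also one of row (in normal skin) and of sex-linked expression. Hair loss against the wild type is likewise a comparison of row 1 with row 2.

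Interleukin 31 is a T cell cytokine known to cause itch. Its receptor pairs the Il31ra chain with the oncostatin M receptor chain Osmr, and it acts on sensory nerves, keratinocytes and myeloid cells of the skin. The alarmins Tslp and Il33, released by epithelium, act through Crlf2 paired with Il7r and through Il1rl1, also named ST2, and promote interleukin 4 and interleukin 13, which bind receptors built from Il4ra and Il13ra1, while Il13ra2 is a decoy for interleukin 13.

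Promoter windows of 250 bases before to 50 bases after the transcript start were available from RefSeq (assembly GRCm38.p6) for 9 of the 10 genes, as 11 windows. Those of Il31ra, with the largest difference between groups by brightest probe, and of Il1rl1, whose probes differed from each other and which has 2 annotated starts, are shown 5′ to 3′ on the strand of the gene, with the motif matches in capitals.
Il31ra, chr13:112580613-112580912, minus strand: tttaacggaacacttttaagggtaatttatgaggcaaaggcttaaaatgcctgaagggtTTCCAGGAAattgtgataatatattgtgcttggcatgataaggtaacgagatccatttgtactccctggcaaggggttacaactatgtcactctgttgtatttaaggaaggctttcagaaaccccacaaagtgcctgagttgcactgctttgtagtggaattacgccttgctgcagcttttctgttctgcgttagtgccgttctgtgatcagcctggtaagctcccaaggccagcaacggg
Il1rl1, upstream start, chr1:40429320-40429619, plus strand: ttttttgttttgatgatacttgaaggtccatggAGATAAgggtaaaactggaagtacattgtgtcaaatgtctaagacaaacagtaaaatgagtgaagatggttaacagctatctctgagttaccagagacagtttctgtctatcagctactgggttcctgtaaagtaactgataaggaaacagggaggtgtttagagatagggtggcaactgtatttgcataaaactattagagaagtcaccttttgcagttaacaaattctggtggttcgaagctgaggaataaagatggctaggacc
Il1rl1, downstream start, chr1:40439379-40439678, plus strand: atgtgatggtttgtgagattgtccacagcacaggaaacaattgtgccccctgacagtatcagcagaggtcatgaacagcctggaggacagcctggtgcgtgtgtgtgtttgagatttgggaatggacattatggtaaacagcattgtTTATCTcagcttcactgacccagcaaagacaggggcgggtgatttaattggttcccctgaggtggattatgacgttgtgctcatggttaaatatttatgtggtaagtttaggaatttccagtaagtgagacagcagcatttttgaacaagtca
The capitals mark TTCCAGGAA in the Il31ra window, a match to the STAT motif TTCNNNGAA at position -191 from the start. In the Il1rl1 windows they mark a match to the GATA motif AGATAA, at position -217 from the upstream start, and its reverse complement TTATCT, at position -103 from the downstream start. Both strands were searched for 5 motifs, whose matches may overlap. Of 32851 mouse promoter windows of this length, 8.3% held TTCNNNGAA, 6.95% the STAT6-type TTCNNNNGAA, 7.81% the AP-1 motif TGANTCA, 11.2% AGATAA and 13.6% the TATA box TATAAA. Il7r also had a STAT match (TTCAGGGAA), one of the 2 Il33 windows had a STAT6-type match (TTCTGGGGAA), and the windows of Il4ra, Il13ra1 and Crlf2 held none of the 5. These matches describe the letters of the windows and were not related to the measurements.

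Levels are log2 values of the processed signal minus the 75th percentile of the same array, so 0 stands for that percentile, and 1 unit is a doubling. Probes bind with different strength, so levels are compared between samples for 1 probe and not between probes. Of the 10 brightest probes, 9 were well above background on all 8 arrays, and that of Tslp was below it in hair loss replicate 1.

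Il31ra, the chain that binds interleukin 31, was lowest in hair loss, intermediate in mutant normal skin and highest in the wild type. The log2 level of its brightest probe (A_51_P427917) was -2.48 in hair loss replicate 1 and -2.13 in replicate 2. The mutant normal skin samples read -0.39, 0.07, -0.78 and -0.30, in the order of their replicate numbers, and the wild type samples 1.16 and 0.14. The 3 groups did not overlap (hair loss lay below all 6 normal skin samples for 5.28% of all probes), but wild type replicate 2 lay only slightly above the highest mutant normal skin sample. The group means were -2.31 ± 0.24 (SD, n = 2), -0.35 ± 0.35 (SD, n = 4) and 0.65 ± 0.72 (SD, n = 2).

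Hair loss skin had 3.88-fold less Il31ra signal than mutant normal skin, a log2 difference of -1.96 (SE 0.33, 95% interval -2.73 to -1.18). With the p-value adjusted over all 30417 probes the difference did not pass (limma adjusted p 0.714), and no probe of the array did. The hair loss arrays are those that chose the gene, so the lower level there is not independent support. Mutant normal skin was below the wild type by 2.00-fold, a log2 difference of -1.003 (SE 0.33, 95% interval -1.78 to -0.23, limma adjusted p 0.206), which did not pass either. This difference was -0.49 without wild type replicate 1 and -1.51 when replicate 2 was dropped instead. Between hair loss and the wild type, the contrast used to choose the gene, the log2 difference was -2.96, or 7.78-fold. The size depended on background correction, and under normexp, a model of background noise, the difference from mutant normal skin was -1.03 and that from the wild type -1.68.

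A second Il31ra probe (A_55_P2141498) was not well above background in either hair loss sample, where it read -5.24 and -5.01. Mutant normal skin was above background, at -2.85, -2.56, -3.53 and -2.68, and so was the wild type, at -0.96 and -2.80. Hair loss lay below the other groups, while wild type replicate 2 fell among the mutant normal skin samples. The hair loss values are only an approximate bound, set by the dimmest probe called above background on each array. By that bound, this probe exceeded hair loss at least 1.94-fold in mutant normal skin and at least 3.96-fold in the wild type. The limma adjusted p between hair loss and mutant normal skin was 0.714, as for the brighter probe. Against the wild type, mutant normal skin was lower by this probe by 1.03 (limma adjusted p 0.332), and by 0.11 without wild type replicate 1 and 1.95 when replicate 2 was dropped. Under normexp hair loss differed from mutant normal skin by -0.40 and from the wild type by -0.90 by this probe, both below the bounds. Both probes carry the same RefSeq accession, so they are not separate evidence of separate transcripts.

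Markers of several other tissues moved with Il31ra when the title numbers were pooled. In whole skin, fewer cells of a type and less RNA per cell cannot be told apart. Of 10 skeletal muscle genes, 10 were lower in hair loss than in mutant normal skin (median log2 difference -1.67) and 10 were lower in mutant normal skin than in the wild type (median -0.65). Their summed signal, in multiples of the 75th percentile of the array, was 212.2 to 592.6 in hair loss, 545.9 to 1365 in mutant normal skin and 1347 to 1506 in the wild type. Nerve and Schwann cell markers were lower in both steps too, 6 of 6 in each, with sums of 9.948 to 14.45, 13.76 to 14.79 and 16.12 to 17.53. Within Mutant097 8 of 10 muscle genes were lower in hair loss (median -0.72), and within Mutant113 10 of 10 (median -2.67). Il31ra was at -2.32 and -1.60. Nerve markers were lower for 6 of 6 within Mutant097 (median -0.30), but split 3 lower and 3 higher within Mutant113 (median -0.05). Genes of the growing hair shaft and inner root sheath went the opposite way, higher for 12 of 12 in each step when the title numbers were pooled, with sums of 1493 to 3317 in hair loss, 499.4 to 2334 in mutant normal skin and 6.534 to 9.77 in the wild type, where 3 of the 12 were at background. In mutant normal skin 10 of the 12 were called against the wild type (median log2 difference of the 12, 8.38), where 0.687% of all probes were. The 3 at background entered the tests only through mutant arrays. Between hair loss and mutant normal skin 0 of the 12 were called. Within Mutant097 12 of the 12 hair genes were higher in hair loss than in normal skin (median 2.40), and within Mutant113 11 of 12 were lower (median -0.31). Macrophage markers were lower in mutant normal skin than in the wild type for 8 of 8 genes (sums 79.36 to 127.5 against 185 to 190.5) and were 90.01 to 106.8 in hair loss. Of 6 eosinophil and basophil markers 3 were tested, since Epx and Prg2 were above background on 0 arrays and Mcpt8 on 1. The 3 were lower in each step (medians -0.10 and -0.94), but within Mutant113 2 of 3 were higher in hair loss. Their sums were 8.054 to 21.83, 11.97 to 21.46 and 23.08 to 32.43, most of it Ear2. Fibroblast markers were lower for 5 of 7 and 6 of 7 (medians -0.11 and -0.96, with 1 called against the wild type), and endothelial markers for 4 of 5 in each step. Apart from these 3 hair genes, 1 mast cell gene and 1 innate lymphoid gene, which were at background in the wild type, each tested marker was above background on at least 1 array of every group. The part of these tissues in the Il31ra difference was not tested.

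Osmr, which pairs with Il31ra and also serves oncostatin M, was level across the groups. Its log2 level was 2.21 and 2.66 in hair loss, 2.18, 2.41, 2.23 and 2.13 in normal skin of the mutants, and 2.10 and 2.38 in the wild type. All 3 groups overlapped, and only hair loss replicate 2 lay above the rest. Hair loss differed from mutant normal skin by 0.19 (SE 0.20, 95% interval -0.26 to 0.65, limma adjusted p 0.999). Mutant normal skin differed from the wild type by 0.003 (95% interval -0.45 to 0.46). Both intervals leave out a difference as large as that of Il31ra in the same comparison.

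**Figure D1:**
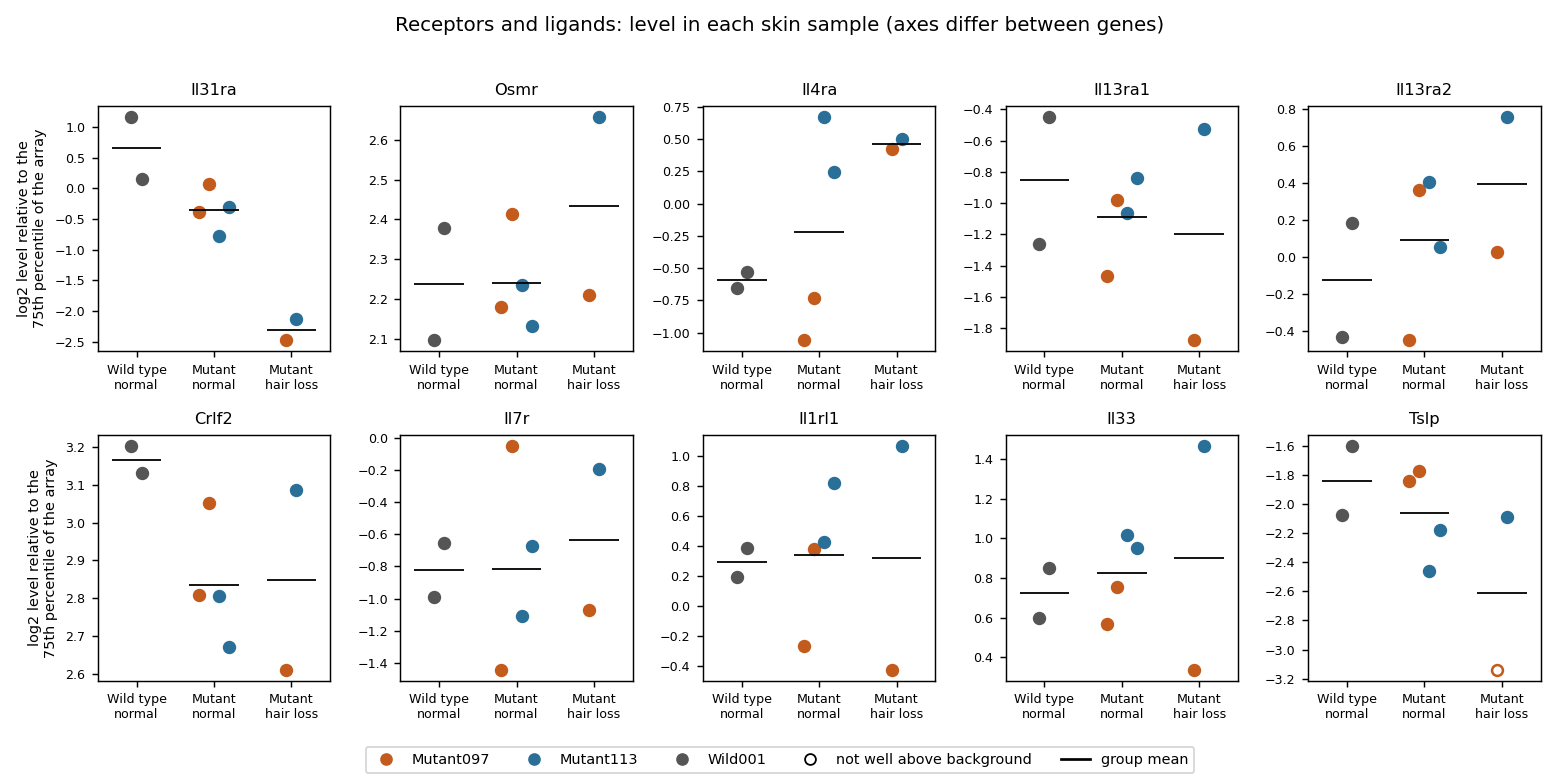
Log2 level (vertical axis, 0 at the 75th percentile of the array) of the brightest probe of each of the 10 genes in each of the 8 samples, by group, with horizontal bars at the group means, colours for the title number and open symbols where a probe was not well above background. Il31ra is the gene whose 3 groups do not overlap, and the axes differ between genes.

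Il4ra, the chain shared by the interleukin 4 and interleukin 13 receptors, split the normal skin of the mutants by title number. By its brighter probe (A_55_P2017789) the log2 level was 0.42 and 0.50 in hair loss. In mutant normal skin it was -1.06 and -0.73 in Mutant097, and 0.67 and 0.24 in Mutant113. The wild type samples read -0.65 and -0.53. Normal skin of Mutant113 thus lay with hair loss, and normal skin of Mutant097 with or below the wild type. The difference between the title numbers in normal skin was 1.35 (SE 0.23, limma adjusted p 0.098), the nearest to the threshold of the 10 genes, where limma called 81 of 30417 probes (0.266%). Under normexp the same difference was 0.96 and passed (adjusted p 0.0459), and over the other alternatives the adjusted p ran from 0.0768 to 0.479. Hair loss minus normal skin was 1.31 within Mutant097 (limma adjusted p 0.173) and 0.04 within Mutant113.

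The other Il4ra probe (A_55_P1966189), with the same accession, did not show this split. Its log2 level was -1.35 and -1.82 in hair loss, -1.73, -1.61, -1.76 and -1.87 in normal skin of the mutants, and -1.74 and -1.50 in the wild type. The title numbers differed by -0.15 in normal skin by this probe (limma adjusted p 0.739), and hair loss differed from mutant normal skin by 0.16. The probes of Il4ra therefore disagree, and the level of the gene in these samples depends on which is read.

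Il13ra1, which joins Il4ra in the receptor of skin cells, and the decoy Il13ra2 overlapped between all groups. Il13ra1 was at -1.88 and -0.52 in hair loss, -1.47, -0.98, -1.07 and -0.84 in normal skin of the mutants, and -1.26 and -0.45 in the wild type. The hair loss samples were the lowest and the second highest of the 8. Il13ra2 was at 0.03 and 0.76 in hair loss, -0.45, 0.37, 0.40 and 0.05 in normal skin of the mutants, and -0.43 and 0.19 in the wild type. Hair loss minus mutant normal skin was -0.11 (95% interval -1.05 to 0.82) for Il13ra1 and 0.30 (95% interval -0.47 to 1.07) for Il13ra2, each with a limma adjusted p of 0.999.

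Crlf2, the specific chain of the Tslp receptor, was lower in mutant normal skin than in the wild type without overlap, by a small amount. Its log2 level was 3.20 and 3.13 in the wild type, 2.81, 3.05, 2.81 and 2.67 in normal skin of the mutants, and 2.61 and 3.09 in hair loss. The difference of -0.33 (SE 0.20, limma adjusted p 0.427) did not pass the threshold. Il7r, which completes that receptor and also binds interleukin 7, was at -1.07 and -0.20 in hair loss, -1.44, -0.05, -1.11 and -0.67 in normal skin of the mutants, and -0.99 and -0.66 in the wild type. Its groups overlapped throughout, and the mutant normal skin samples alone spanned the values of all others. Il7r marks lymphocytes, and the 8 T cell markers measured, the summed signal of which was 53.8 and 63.93 in hair loss replicates 1 and 2, split 4 higher and 4 lower between hair loss and mutant normal skin.

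Il1rl1, the receptor of Il33, gave different pictures by probe. The gene is known to give a membrane-bound receptor and a soluble form that captures Il33. The brightest probe (A_55_P2027737, designed on NM_001025602) read -0.43 and 1.06 in hair loss, -0.27, 0.38, 0.43 and 0.81 in normal skin of the mutants, and 0.19 and 0.39 in the wild type. Its 2 hair loss samples were the lowest and the highest of the 8, and hair loss minus mutant normal skin was -0.02 (95% interval -1.03 to 0.99). The dimmest Il1rl1 probe (A_55_P2027731), on the same accession, was above background on 2 arrays only.

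The probe designed on the other accession (A_51_P339793, NM_010743) was well above background in both hair loss samples, at -1.76 and -2.63, and in no other sample. It read -5.92, -5.30, -4.63 and -4.35 in normal skin of the mutants and -4.98 and -3.94 in the wild type. The hair loss samples therefore lay above all 6 others, as they did for 4.18% of all probes. The probe entered the tests only through its hair loss arrays and so had to differ, and the comparison is given as a description. As an approximate bound, its signal in hair loss exceeded that of mutant normal skin at least 3.30-fold and that of the wild type at least 2.26-fold. Hair loss minus mutant normal skin was 2.85 as measured, 3.85 within Mutant097 and 1.86 within Mutant113, each with 1 hair loss sample against normal skin at background, and 0.49 under normexp, below the bound. Mast cells carry Il1rl1, and mast cell markers were higher in hair loss than in mutant normal skin for 7 of 7 genes, with summed signals of 41.74 and 115.9 in hair loss replicates 1 and 2, 40.05 to 58.69 in mutant normal skin and 36.1 to 39.42 in the wild type. The higher mast cell sum fell in hair loss replicate 2, and the higher reading of this probe in hair loss replicate 1. Type 2 innate lymphoid markers, another cell type with Il1rl1, were higher for 5 of 6 genes, but within Mutant113 3 were higher and 3 lower. Their sums were 30.12 to 32.35 in hair loss, 30.38 to 33.24 in mutant normal skin and 21.77 to 29.44 in the wild type. Most of each sum was Gata3, the gene that was lower in hair loss (-0.06). The part of these cells was not tested.

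**Figure D2:**
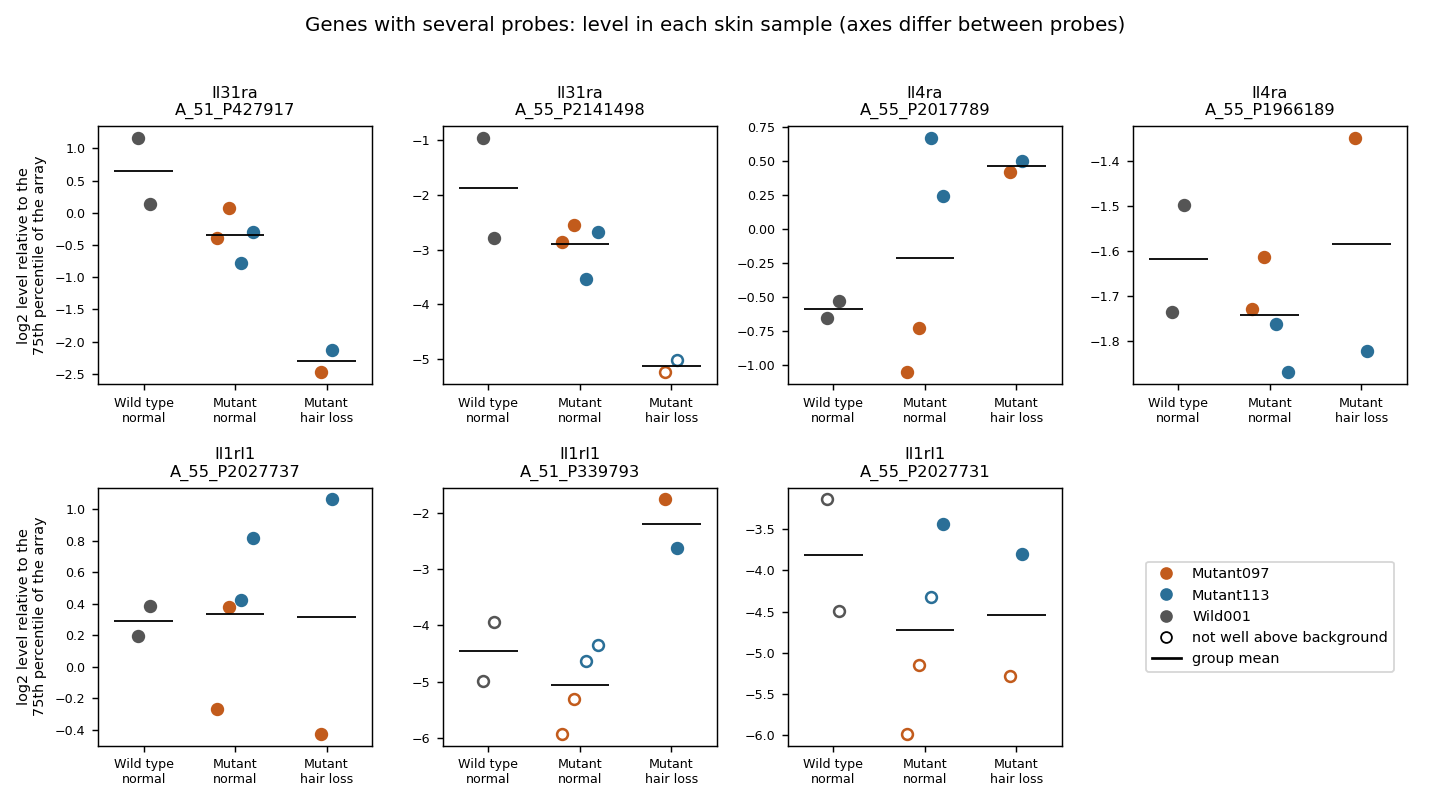
Log2 level (vertical axis, 0 at the 75th percentile of the array) in each sample for every probe of Il31ra, Il4ra and Il1rl1, the genes with several probes, with bars at the group means and open symbols where a probe was not well above background. Both Il31ra probes are lowest in hair loss, the Il4ra probes disagree, and the Il1rl1 probe A_51_P339793 is above background in the 2 hair loss samples only.

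The ligands were measured in skin as well. Il33, an alarmin stored in the nuclei of keratinocytes and stromal cells, was at 0.34 and 1.46 in hair loss, 0.57, 0.76, 1.02 and 0.95 in normal skin of the mutants, and 0.60 and 0.85 in the wild type. Hair loss held both the lowest and the highest value. Tslp, the keratinocyte alarmin that binds Crlf2, was at -3.14 (not above background) and -2.09 in hair loss, -1.84, -1.77, -2.46 and -2.18 in normal skin of the mutants, and -2.08 and -1.60 in the wild type. Hair loss replicate 1 was the lowest, hair loss replicate 2 lay among the mutant normal skin samples, and both lay below the wild type samples. Hair loss minus mutant normal skin was 0.08 (SE 0.31) for Il33 and -0.55 (SE 0.34) for Tslp, each with a limma adjusted p of 0.999.

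Hair loss against mutant normal skin gave 0 calls by limma among the 10 genes, and 0 among all 30417 probes (0%). Mutant normal skin against the wild type gave 0 among the 10 genes, where 209 of all probes were called (0.687%), a count that was 0 when wild type replicate 2 was dropped and 10 when replicate 1 was. At an unadjusted p under 0.05 there was 1 gene, Il31ra, in each comparison, against 5.19% and 17.2% of all probes. Between hair loss and mutant normal skin 6 genes were higher and 4 lower (49.3% of all probes were higher), with a median difference of 0.05 against -0.004 over all probes, and the size was under 0.5 for 7 of them. In mutant normal skin, 6 genes were higher and 4 lower than in the wild type (46.2% of all probes were higher), the median was 0.004 against -0.04 over all probes, and 9 of 10 were under 0.5 in size. Without overlap between the groups, 1 gene was lower and 0 were higher in hair loss than in mutant normal skin (6.63% and 5.76% of all probes), and 2 (Il31ra and Crlf2) were lower and 0 higher in mutant normal skin than in the wild type (14.9% and 13.5%). For 10 genes these counts are close to the background shares. These comparisons share arrays with each other and with the contrast that chose Il31ra.

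**Figure D3:**
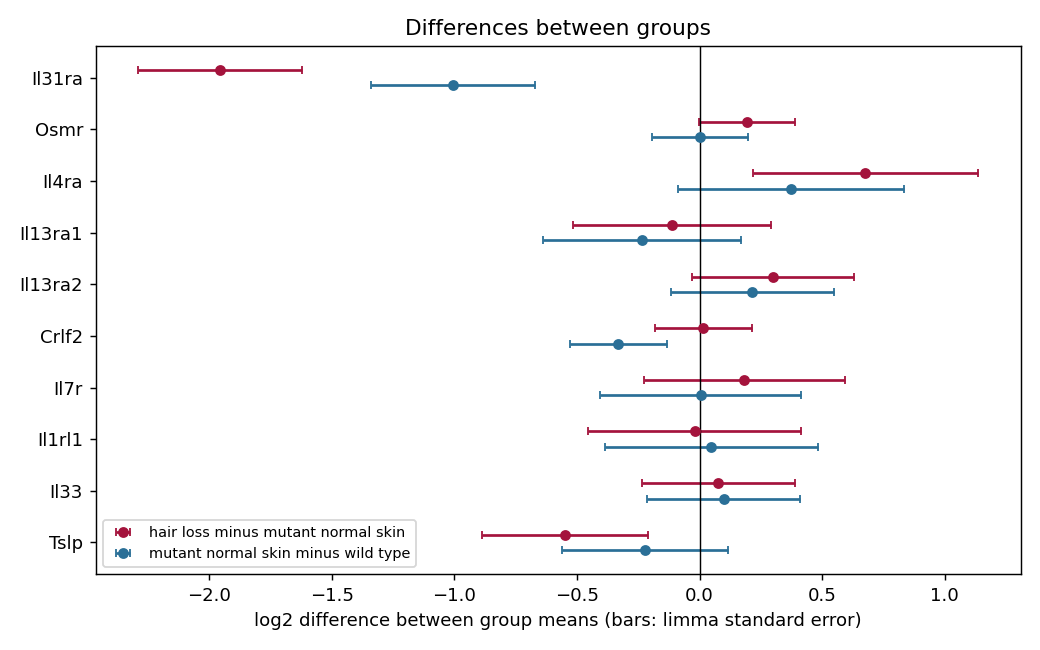
Log2 difference between group means (horizontal axis) for the brightest probe of each of the 10 genes, hair loss minus mutant normal skin and mutant normal skin minus wild type, with bars of 1 limma standard error. Il31ra is at -1.96 and -1.003, and 7 and 9 of the 10 genes lie within 0.5 of 0.

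Between hair loss and the wild type, 6 genes were higher and 4 lower (45.8% of all probes were higher). Without overlap, Il31ra, Crlf2 and Tslp were lower and Il4ra was higher, where 28.5% and 24.7% of all probes did not overlap in these directions and limma called 1.41%. The differences were -0.32 for Crlf2, -0.77 for Tslp and 1.05 for Il4ra by its brighter probe, which was 0.03 by the other. Because this contrast chose the genes, nothing further is read from it.

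Hair loss was also compared with normal skin within each title number. By the brightest probes, hair loss replicate 2 was above hair loss replicate 1 for 10 of the 10 genes, as it was for 48.3% of all probes. The second Il31ra probe and the dimmest Il1rl1 probe went the same way. The other Il4ra probe and the Il1rl1 probe A_51_P339793 were lower in replicate 2. Hair loss minus normal skin was below 0 for 8 of the 10 within Mutant097 (median -0.32) and above 0 for 9 of the 10 within Mutant113 (median 0.43), where 46.9% and 54.5% of all probes were above 0. No gene of the 10 was called within either number, where limma called 0.631% and 0.00329% of all probes. Il31ra was the exception in Mutant113, at -2.32 within Mutant097 and -1.60 within Mutant113. Tslp moved from -1.33 to 0.23, Il7r from -0.33 to 0.69 and Il13ra1 from -0.65 to 0.43. The signed difference, Mutant113 minus Mutant097, was above 0 for 9 of 10 genes, as for 53% of all probes. The test of this difference, with 1 hair loss sample per number, called 0 of the 10 genes and 0 of 30417 probes (0%). For Il31ra the difference in lesion effect was 0.72 (SE 0.69, limma adjusted p 0.810), and for Il4ra by its brighter probe -1.27 (SE 0.40, limma adjusted p 0.424). For Tslp the value within Mutant097 rests on 1 hair loss sample that was not above background. T cell, dendritic cell and fibroblast markers split the same way, lower within Mutant097 for 6 of 8, 4 of 6 and 7 of 7 genes and higher within Mutant113 for 7 of 8, 6 of 6 and 7 of 7. Adipocyte and endothelial markers did so too, lower for 5 of 6 and 5 of 5 and then higher for 6 of 6 and 4 of 5, while the hair shaft and inner root sheath genes split the opposite way. The part of these cells was not tested.

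**Figure D4:**
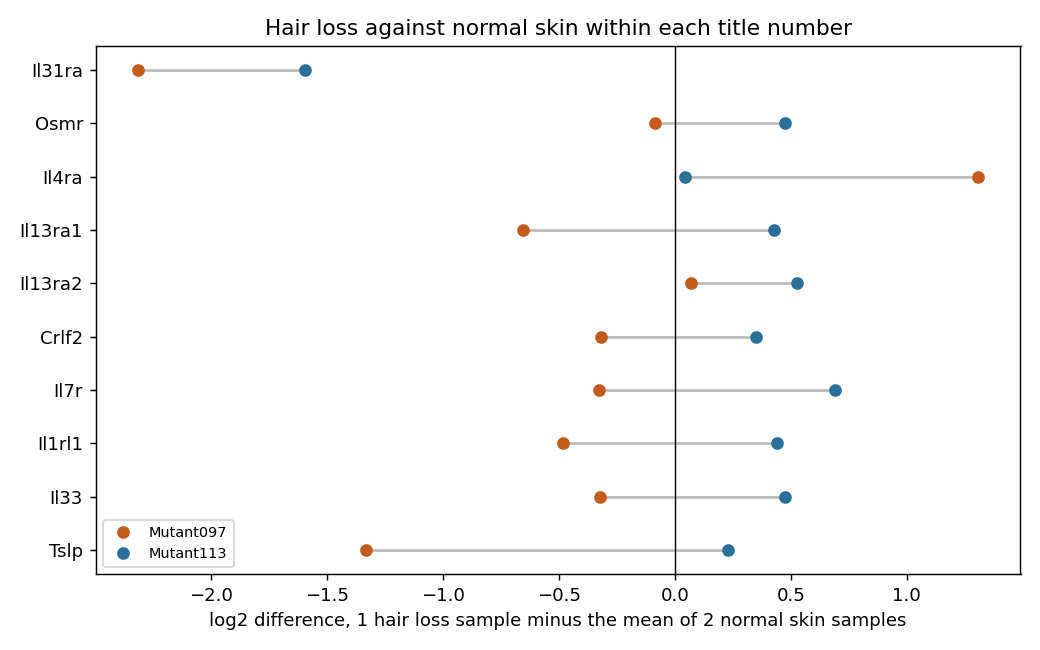
Log2 difference between 1 hair loss sample and the mean of 2 normal skin samples (horizontal axis) for the brightest probe of each of the 10 genes, within Mutant097 and within Mutant113. Within Mutant113, 9 of 10 genes lie above 0, and within Mutant097 8 of 10 lie below it, while Il31ra is below 0 in both.

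The other genes of these pathways were read from 6 lists, each gene by its brightest probe. Among 10 ligands, 3 were measured, Il4, Il7 and Il6, the last at background in the wild type. Il31, Osm, Il5, Il9 and Il25 were well above background on 0 arrays and Il13 and Lif on 1, so the ligands of Il31ra and Osmr were not detected at the sensitivity of the array. Il6 was at -2.22 and -2.78 in hair loss and -4.46, -3.89, -2.92 and -3.03 in mutant normal skin, of which the first 2 were not above background. Its hair loss samples lay above all others, but the difference of 1.08 (SE 0.46, limma adjusted p 0.955) did not pass and was 0.15 under normexp. In mutant normal skin Il6 was higher than in the wild type by 1.13 (SE 0.46, limma adjusted p 0.265). It was called in 2 of 16 alternatives, and the difference was -0.06 under normexp. Il6 entered the tests only through mutant arrays, so these calls are not independent of the filter. Il4 and Il7 differed between hair loss and mutant normal skin by -0.07 and 0.17.

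Of 7 receptor chains that the 10 genes pair with or resemble, 6 were lower in hair loss than in mutant normal skin and 7 of 7 were lower in mutant normal skin than in the wild type, with medians of -0.16 and -0.35, and 0 were called in either comparison. Over all probes 49.3% and 46.2% were higher in these comparisons. Within Mutant097 7 of 7 chains were lower in hair loss (median -0.41), while within Mutant113 4 were lower and 3 higher (median -0.008). Against the wild type, markers of macrophages (8 of 8, median -1.08), fibroblasts (6 of 7, median -0.96) and endothelium (4 of 5, median -0.43) were lower as well, and their part was not tested. Hair loss minus mutant normal skin was -0.35 for Il6ra, the interleukin 6 receptor, -0.33 for Il5ra and -0.32 for Il6st, the shared gp130 chain. Without hair loss replicate 1 these differences were -0.17, 0.63 and -0.20. Mutant normal skin minus wild type was -0.63 (-0.37 without wild type replicate 2) for Il2rg, the common gamma chain that joins Il4ra and Il7r. It was -0.40 for Lifr and -0.36 for Il1rap, which pairs with Il1rl1. Of 16 signal transducers, 9 were higher and 7 lower in hair loss and 8 each way against the wild type, with 0 called. The kinase Irak4, which acts below Il1rl1, differed by 0.43 and -0.32 in these comparisons. Stat5b, a transcription factor used by the Il7r and Crlf2 receptor, was at -0.38 in the first, and Traf6 at 0.24 and 0.46. The feedback inhibitor Socs3 was at 0.41 in the second, where Traf6 and Socs3 were at 0.027 and 0.07 without wild type replicate 1 and at 0.89 and 0.75 without replicate 2.

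Among 12 measured targets of type 2 cytokines, 5 were higher and 7 lower in hair loss than in mutant normal skin, the same counts held for mutant normal skin against the wild type, and 0 were called in either. Retnla, an alternatively activated macrophage product induced by interleukin 4, was at 4.14 and 5.28 in hair loss, 5.50, 6.204, 5.52 and 6.38 in normal skin of the mutants, and 6.67 and 7.14 in the wild type. The 3 groups did not overlap, in the same order as for Il31ra, with differences of -1.19 (SE 0.39, limma adjusted p 0.857) and -1.01 (SE 0.39, limma adjusted p 0.255). Without hair loss replicate 1 the first was -0.62. The chemokine Ccl17 was higher in hair loss than in mutant normal skin by 1.05 and Chil3 by 0.73 (0.47 without hair loss replicate 2). Against the wild type Ccl17 was at -0.86 and the eosinophil chemokine Ccl24 at -0.82 (-0.48 without wild type replicate 2) in mutant normal skin. Ccl17 was low in mutant normal skin replicate 1 (-2.54), and without it the Ccl17 differences were 0.59 and -0.40; the second was -1.29 and -0.42 without wild type replicates 1 and 2. None of these passed.

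Of 15 itch proteases and epidermal itch receptors, 11 were higher and 4 lower in hair loss than in mutant normal skin (median 0.20), with 0 called. Over all probes 49.3% were higher. Within Mutant097 7 were higher and 8 lower (median -0.04), and within Mutant113 12 were higher and 3 lower (median 0.36). With the title numbers pooled, Klk6 was higher in hair loss by 2.53 (limma adjusted p 0.795), Klk13 by 1.22 and Klk7, a protease that sheds the cornified layer, by 0.90. Klk6 was high in mutant normal skin replicate 3 (4.92, against 1.94 to 2.26 in the others), and without that sample its difference was 3.24 and passed (limma adjusted p 0.0206). Of 18 alternatives this was the 1 that called it, and it leaves out the sample that went against the difference. Against the wild type 10 were higher and 5 lower in mutant normal skin (median 0.27), and Klk13 was called. Klk13 read -0.87, -1.05, -1.02 and -2.24 in mutant normal skin. It was not above background in the wild type, which lay lower by at least 4.23-fold as an approximate bound. The log2 difference was 2.53 (SE 0.38, limma adjusted p 0.0396). Klk13 entered the tests only through mutant arrays, where it was high, so this call is not independent of the filter. The call held in 5 of 16 alternatives. Among others, it was lost without either wild type sample and under normexp, where the difference was 0.60, below the bound.

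Of 8 barrier and interleukin 1 family genes, 7 were higher in hair loss than in mutant normal skin (median 0.59) and 6 were higher in mutant normal skin than in the wild type, with 0 called. Il18bp, the decoy that captures interleukin 18, was higher in hair loss by 1.17, but by 0.57 without hair loss replicate 1 and 1.77 without replicate 2. Il18 itself was higher by 0.76 (0.50 without hair loss replicate 2) and the cornified envelope protein Ivl by 0.71. In mutant normal skin Il1b was higher than in the wild type by 1.02 and Ivl by 0.79 (0.46 without wild type replicate 1), and Il18bp was at -0.48. The medians over all probes were -0.004 and -0.04 in these comparisons.

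**Figure D5:**
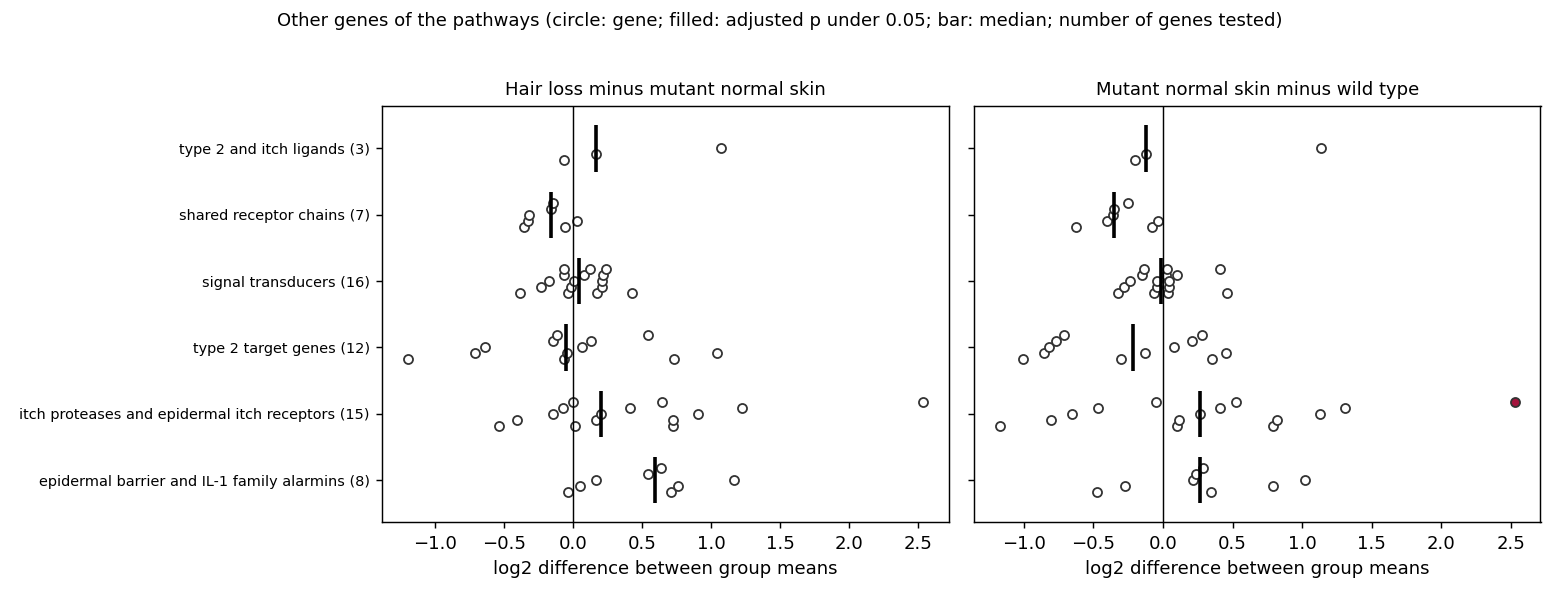
Log2 differences between group means (horizontal axis) for each tested gene of the 6 pathway lists (circles, filled where the limma adjusted p was under 0.05), with a bar at the median of each list, for hair loss minus mutant normal skin and mutant normal skin minus wild type. Klk13 against the wild type is the filled circle, and 7 of 7 receptor chains lie below 0 in that comparison.

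By the mean absolute difference between mean-centred log2 values over the 8 samples, the genes nearest in pattern to Il31ra among 14773 were Adcy1 (0.18), Myoc (0.25), Fgf18 (0.30), Islr2 (0.35) and Scd3 (0.35). Each was lowest in hair loss and highest in the wild type, Adcy1 at mean log2 levels of -2.78, -0.80 and 0.25 and Fgf18 at 0.41, 2.11 and 2.71. They were picked for closeness to Il31ra over these same samples, so the shared order of the groups follows from the choice. Nearest to Osmr were Tnfrsf18 (0.04), Smap2 (0.04), Flvcr2 (0.05), Vav3 (0.06) and Heca (0.06), with differences between hair loss and mutant normal skin of 0.11 to 0.17. Genes with a flat profile lie close to each other by this measure, so the small distances to Osmr describe its even level.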

How the data were processed

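Total RNA of 8 skin samples was labelled with Cy3 and hybridised to 1-colour Agilent mouse arrays on 1 slide, in 1 scan, per the labels' protocols and the file headers. The deposited scanner files hold processed intensity, corrected for background within each array by Agilent Feature Extraction 11.5.1.1, per the submitters' processing notes. The authors' deposited matrix holds log2 values, which equal the log2 of that intensity within 0.01 after 1 shift per array for all 55603 probes compared.

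Here, log2 intensity was averaged over the spots of a probe, without control and outlier spots, and reduced by the 75th percentile of the array (83.2 to 211.6 in intensity). The 30417 probes well above background on at least 2 of 8 arrays were tested. Symbols came from RefSeq accessions. Bounds on folds were computed against the lowest signal well above background on each array. They are approximate, since a probe can read above that floor and not be called above background. Tslp did so in hair loss replicate 1, at -3.14 with the floor at -3.31. The 3 groups were fitted together with limma 3.58.1 in R 4.3.3 (5 residual and 2.71 prior degrees of freedom), two-sided, with Benjamini-Hochberg adjustment and calls at an adjusted p under 0.05. A second fit used 5 combinations of group and title number (3 residual and 2.51 prior degrees of freedom). The fit was tested on simulated data. The number of arrays limits the precision.

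The genes and gene lists were chosen with earlier results of these data known. All 10 genes are named with every probe. From each pathway list at most 3 genes are named per comparison, those with the largest differences among called genes, or among tested genes where none was called, and the 5 nearest profiles are named for Il31ra and Osmr. A gene is read by its probe with the highest mean. Alternatives were the scaling, normexp (planned on mean signals and run on median signals and local background instead, with offset 50), the filter, slide row or title number as a block, samples merged or left out, and the matrix. Their use on the comparison of title numbers, the second probes and the pathway genes was chosen after seeing the data. Hair loss against the wild type was not tested for the 10 genes, because it chose them.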

Additional observations from a re-analysis of the deposited data

How the results depend on the processing

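Il31ra ranged from -2.32 to -1.03 between hair loss and mutant normal skin and from -1.51 to -0.49 between mutant normal skin and the wild type, and was called under no alternative run. The filters, the 2 groups alone, 1 mean per title number and the title number as a block change only the error here, not the difference. No alternative called any of the 10 genes in these comparisons or in the difference between lesions, and 1 (Il4ra) was called between the title numbers in normal skin under normexp. Array number, title number and, for dim probes, signal near background limit all values, and the causes of the changes below were not tested. Of the alternative values for single genes of the 10, 417 left the reading as it was, 20 moved it and 52 turned the sign. These counts include hair loss against the wild type, the contrast that chose the genes. They also include the alternatives that cannot change a difference, so the 417 does not measure stability.

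The count of probes called in hair loss against mutant normal skin (0) was 192 within Mutant097 and 1 within Mutant113, and 0 to 11 with 1 sample left out (9 without hair loss replicate 2, 11 without mutant normal skin replicate 3). That between hair loss and the wild type (429) was 185 with no filter, 715 with the 2 groups alone, 1335 with slide row as a block, 0 with 1 mean per title number, and 0 to 564 with 1 sample left out (0 and 10 without wild type replicates 2 and 1, 2 without hair loss replicate 1). That between mutant normal skin and the wild type (209) was 128 with no filter, 84 with detection on all 8 arrays, 858 with slide row as a block, 0 with 1 mean per title number, 989 for Mutant113 alone, and 0 to 191 with 1 sample left out (75 and 116 without mutant normal skin replicates 4 and 3).

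Signs turned mostly where the difference was near 0. Between hair loss and mutant normal skin, normexp gave 0.086 for Il1rl1 and 0.032 for Il4. Quantile normalization gave -0.013 for Crlf2. The slide row block gave -0.081 for Crlf2, 0.024 for Il13ra1, 0.26 for Il1rl1, 0.038 for Il4 and 0.004 for Il5ra. Within Mutant097 the values were -0.32 for Crlf2, -0.32 for Il33, -0.18 for Il7, -0.33 for Il7r and -0.086 for Osmr. Within Mutant113 they were 0.43 for Il13ra1, 0.44 for Il1rl1, 0.76 for Il4, 0.30 for Il5ra and 0.23 for Tslp. Other probes of Il1rl1 gave 2.85 and 0.19. With 1 sample left out, the ranges were -0.22 to 0.25 for Crlf2, -0.79 to 0.56 for Il13ra1, -0.066 to 0.66 for Il13ra2, -0.76 to 0.73 for Il1rl1, -0.49 to 0.64 for Il33, -1.01 to 0.87 for Il4, -1.29 to 0.63 for Il5ra, -0.22 to 0.56 for Il7, -0.26 to 0.62 for Il7r and -0.03 to 0.42 for Osmr. Leaving out one of the hair loss samples turned each of these.

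Between mutant normal skin and the wild type, scaling on detected probes gave -0.023 for Il7r and -0.025 for Osmr. Normexp gave -0.06 for Il6 and -0.06 for Il7r, and quantile normalization 0.11 for Il7 and -0.041 for Osmr. The Il6 difference was not near 0 in the main fit, at 1.13. The slide row block, and Mutant113 alone, gave -0.065 for Il7r and -0.054 for Osmr. Mutant097 alone gave -0.24 for Il1rl1, -0.064 for Il33, -0.30 for Il4ra and 0.033 for Tslp. The other probes gave -0.59 and -0.91 for Il1rl1 and -0.13 for Il4ra. With 1 sample left out, the ranges were -0.64 to 0.17 for Il13ra1, -0.091 to 0.52 for Il13ra2, -0.11 to 0.25 for Il1rl1, -0.027 to 0.22 for Il33, -0.54 to 0.30 for Il7, -0.25 to 0.21 for Il7r, -0.14 to 0.14 for Osmr and -0.46 to 0.014 for Tslp.

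Both mutant title numbers are shared by hair loss and mutant normal skin, with correlations between deviations from the group means of 0.02 to 0.21 for the same number. With the title number as a replicate block the Il31ra difference is -1.96 by design, since each number has 1 hair loss and 2 normal skin samples, with a limma adjusted p of 0.676, and 0 probes were called. The wild type has a number of its own, so that block cannot be used against it.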
